A study of Homo sapiens with 18 samples.

Results

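The genes described here encode the chromatin loop machinery of CTCF and cohesin: CTCF, SMC1A, SMC3, RAD21, STAG1, STAG2, NIPBL, WAPL, PDS5A and PDS5B. They were taken as a named list of 10 genes from the 58302 genes of the RNA-seq table. The list was set by gene name and not by measured values, but with earlier results of these data known. Each of the 10 passed the filter on low counts that left 16751 genes to be tested. RNA was sequenced from U87 cells, an established human glioblastoma line, in 4 libraries. The 2 control libraries came from cells under normal growth condition, for which the labels name no vehicle. The other 2 came from cells given Erastin, a small molecule that blocks cystine import and so starves the cell of glutathione, at 10 μM for 72 h. Both groups were grown in the same serum-supplemented medium, and all libraries came from 1 cell line. Nothing in the labels says that the numbered replicates were separate cultures, so the p-values measure the spread between these libraries, which may be technical.

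Cohesin is a ring-shaped protein complex that holds sister chromatids together until they separate in mitosis and, in interphase, draws chromatin into loops. SMC1A and SMC3 form the arms of the ring, RAD21 closes it, and STAG1 or STAG2 binds RAD21 as an alternative subunit. NIPBL with its partner MAU2 loads and drives the ring, WAPL releases it with the help of PDS5A and PDS5B, and CTCF bound to DNA halts it, which sets where many loops end.

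The libraries held between 29412656 and 31513519 counts on genes. The mesenchymal glioma markers VIM, CD44, FN1, CHI3L1 and TNC were abundant in all 4 libraries and all 5 were lower under Erastin. Their summed level was 11569 and 11945 CPM (counts scaled for library size, with TMM factors) in control against 3921 and 4183 CPM in Erastin libraries. The log2 fold change was −3.39 for FN1, −2.26 for CHI3L1 and −1.69 for TNC, but only −0.60 for VIM and −0.36 for CD44. Of the glial markers, SOX2 and S100B were under the filter. NES had 41.8 and 31.3 CPM in control against 3.51 and 2.45 CPM in Erastin libraries (log2 fold change −3.62, edgeR adjusted p = 3.97e-08), and OLIG2 (1.88 to 2.88 CPM, log2 fold change −0.40) and GFAP (1.32 to 2.58 CPM, 0.79) did not pass the test. PTPRC, AIF1 and CDH5, markers of leukocytes, microglia and endothelium, had at most 1 count in any library. CSF1R, the other microglia and leukocyte marker, had 256 and 259 counts in control against 147 and 177 in Erastin libraries. Its log2 fold change was −0.66 (edgeR adjusted p = 0.0116). The neuron markers summed to 52.6 and 57.4 CPM in control and 12.9 and 12.9 CPM in Erastin libraries, with SNAP25 at a log2 fold change of −3.31. The microglia and leukocyte markers summed to at most 8.37 CPM and the endothelium markers to at most 6.18 CPM, where PECAM1 (−2.34) and VWF (2.58) moved in opposite directions. The part of these marker changes in the values of the members was not tested. In bulk RNA, fewer cells of a type and less RNA per cell cannot be told apart.

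Under Erastin the members moved in both directions. RAD21, PDS5B, SMC3, SMC1A and PDS5A fell, STAG1, CTCF and NIPBL rose, and STAG2 and WAPL did not pass the test (edgeR's quasi-likelihood test, adjusted p under 0.05). The 3 members that rose stand beside a background of 23.2% of tested genes called higher, and the 5 that fell beside 23.7% called lower. In mean level the members stood above 58.8% (PDS5B) to 96.1% (RAD21) of the tested genes, and no background of like level was taken. Where the log2 fold change also had to reach 1 or −1, 0 of the 10 members were higher (6.24% of tested genes were) and 1 was lower, RAD21 (9.34% of tested genes were). Both Erastin libraries lay above both controls for 4 members, against 36.7% of tested genes, and below both for 5, against 36.9%. The median log2 fold change of the members was −0.14, and that of the tested genes was −0.00. The members together took 0.125% and 0.128% of counts in control against 0.106% and 0.103% in Erastin libraries. The plot of member levels by library shows how close the replicates were.

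**Figure D1:**
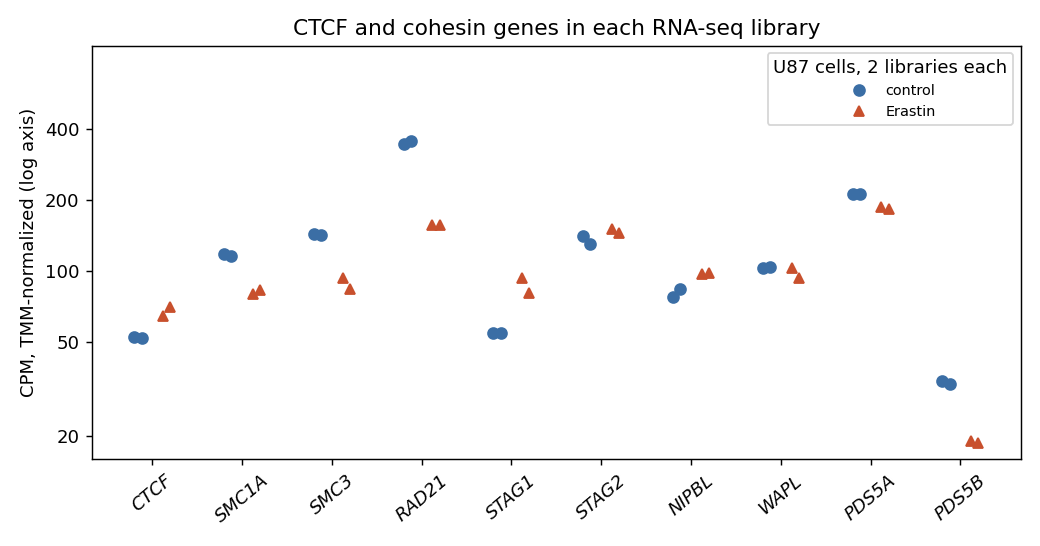
Level of each of the 10 genes in the 4 libraries, in TMM-normalized CPM on a log axis, with 1 point per library (blue circles control, orange triangles Erastin). RAD21 has the widest gap between the groups among the genes that fell and STAG1 among those that rose, while the points of WAPL overlap.

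CTCF, the zinc-finger protein that marks loop anchors and insulator sites, rose modestly. The gene lies on chromosome 16 of GRCh38, on the forward strand from 67562407 to 67639183. Its level was 52.7 and 52.1 CPM in control against 64.5 and 70.1 CPM in Erastin libraries. Both Erastin libraries were above both controls, and they differed more from each other than the controls did. The mean rose from 52.4 ± 0.426 to 67.3 ± 3.97 CPM (SD, n = 2 libraries each). For CTCF this was a log2 fold change of 0.36 (95% interval 0.19 to 0.54, standard error 0.0798, edgeR adjusted p = 0.00282). The largest of the genes that overlap CTCF, on the opposite strand, held 1.02% as many counts as CTCF did.

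The 3 genes of the ring all fell, RAD21 the most. RAD21 encodes the kleisin subunit, which closes the ring and is cut by separase when sister chromatids part. It lies on the reverse strand of chromosome 8 from 116845935 to 116874866. Its level was 345.1 and 355.7 CPM in control against 157.3 and 156.3 CPM in Erastin libraries. No other member had so wide a gap between the groups in relation to its level, and the replicates of each group were close. RAD21 had a log2 fold change of −1.16 (95% interval −1.30 to −1.02, standard error 0.0643, edgeR adjusted p = 5.19e-08), an Erastin to control ratio of 0.448. Of the tested genes, 9.57% had a lower log2 fold change. In mean level RAD21 stood above 96.1% of the tested genes. UTP23 overlaps RAD21 on the opposite strand, and the counting did not use strand. UTP23 had 625 and 812 counts in control against 1025 and 1047 in Erastin libraries, 11.2% of the counts of RAD21 over all libraries. RAD21 had 10551 and 11051 counts in control against 4705 and 4912 in Erastin libraries. UTP23 thus moved opposite to RAD21, and its counts were a larger share of those of RAD21 under Erastin than in control.

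SMC3, an ATPase arm of the ring, is on chromosome 10 (forward strand, 110567691 to 110604636). Its level was 144.1 and 142.0 CPM in control against 93.2 and 84.2 CPM in Erastin libraries. The groups did not overlap, and the mean went from 143 ± 1.51 to 88.7 ± 6.41 CPM (SD, n = 2 libraries each). SMC3 fell by 0.69 on the log2 scale (95% interval −0.85 to −0.53, standard error 0.0734, edgeR adjusted p = 1.20e-05). SMC1A, the other arm, is on the X chromosome (reverse strand, 53374149 to 53422728). Its level was 118.5 and 115.5 CPM in control against 80.1 and 83.2 CPM in Erastin libraries, again without overlap. The log2 fold change of SMC1A was −0.52 (95% interval −0.67 to −0.37, standard error 0.0689, edgeR adjusted p = 7.02e-05).

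Markers of dividing cells fell with the ring genes. All 10 genes of that list were lower, 9 of them also past the fold threshold, with a median log2 fold change of −2.82. Their summed level was 1361 and 1318 CPM in control against 232.6 and 233.1 CPM in Erastin libraries. The log2 fold change was −3.89 for MKI67, which marks cycling cells, −3.82 for CCNB1, the cyclin of mitotic entry, −3.31 for TOP2A, a DNA topoisomerase of mitotic chromosomes, and −1.37 for MCM2, part of the replicative helicase. The part of this shift in the values of the cohesin genes was not tested.

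The STAG subunits, which bind RAD21 and contact CTCF, did not follow the ring. STAG1, on chromosome 3 (reverse strand, 136336233 to 136752403), rose more than any other member. Its level was 54.6 and 54.5 CPM in control against 93.9 and 80.9 CPM in Erastin libraries. The controls were almost equal, the Erastin libraries differed from each other, and both lay well above the controls. This gave STAG1 a log2 fold change of 0.68 (95% interval 0.49 to 0.87, standard error 0.0853, edgeR adjusted p = 4.45e-05), a ratio of 1.60. PCCB, a mitochondrial carboxylase gene, overlaps STAG1 on the opposite strand, and the counting did not use strand. It held 56.4% as many counts as STAG1 did, the largest share of any gene that overlaps a member. PCCB had 1256 and 1226 counts in control against 1132 and 1305 in Erastin libraries, so its range in the Erastin libraries took in that of the controls. STAG1 had 1670 and 1692 counts in control against 2809 and 2543 in Erastin libraries.

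STAG2, on the X chromosome (forward strand, 123960212 to 124422664), is the more abundant of the pair. Its level was 141.4 and 130.1 CPM in control against 150.8 and 144.5 CPM in Erastin libraries. Both Erastin libraries were above both controls, but the gap between the groups was smaller than the difference between the control libraries. STAG2 had a log2 fold change of 0.12 (95% interval −0.03 to 0.28, standard error 0.0709) and did not pass the test (edgeR adjusted p = 0.186). It was 0.18 without control replicate 1 and 0.0544 without control replicate 2. Per base of exon, STAG2 made up 71.3% and 69.6% of the summed STAG1 and STAG2 reads in control against 60.6% and 63.1% in Erastin libraries. The share fell by 8.57 percentage points, from 70.4% ± 1.18 to 61.9% ± 1.77 (SD, n = 2 libraries each), with an exact permutation p of 0.333, the smallest that 2 against 2 libraries can give.

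Among the 5 subunit genes of the complex, the balance moved from RAD21 towards the STAG genes. Levels between genes were compared as CPM per kilobase of exon (RPKM), and the exon length is that of all annotated exons of the gene, so it is an upper limit where shorter transcripts are in use. RAD21 took 45.4% ± 1.10 of the summed reads per base in control cells and 30.5% ± 1.01 in Erastin-treated cells (SD, n = 2 libraries each). STAG1 went from 5.57% ± 0.00368 to 13.4% ± 0.905 and STAG2 from 13.3% ± 0.745 to 21.7% ± 0.159. SMC3 went from 26.8% ± 0.213 to 25.0% ± 0.866, and SMC1A from 8.94% ± 0.140 to 9.39% ± 0.599, with the lowest Erastin value of SMC1A inside the range of the controls. The shares of 1 library add up to the whole, so a fall of RAD21 alone would raise the others.

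**Figure D2:**
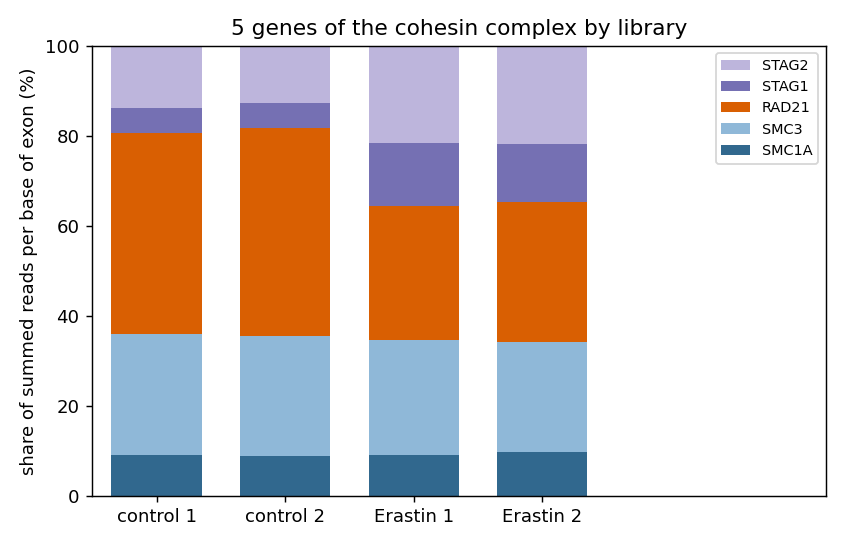
Share of each of the 5 cohesin subunit genes in their summed reads per base of exon, in percent, with 1 stacked bar per library. RAD21 takes 44.6% and 46.1% of the bar in control against 29.8% and 31.2% in Erastin libraries.

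The loading genes rose. NIPBL, the large HEAT-repeat protein that loads cohesin and stimulates its ATPase, is on chromosome 5 (forward strand, 36876759 to 37066413). Its level was 77.8 and 84.3 CPM in control against 97.3 and 98.2 CPM in Erastin libraries. Both Erastin libraries were above both controls. In the fit NIPBL had a log2 fold change of 0.27 (95% interval 0.11 to 0.43, standard error 0.0728, edgeR adjusted p = 0.00943). Without Erastin replicate 1 the adjusted p of NIPBL was 0.0535 and without Erastin replicate 2 it was 0.0617, so its call rested on both libraries. MAU2, which encodes the partner of NIPBL and is no member of the list of 10, had 1736 and 1568 counts in control against 2434 and 2682 in Erastin libraries, a log2 fold change of 0.64 (edgeR adjusted p = 5.66e-05).

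The genes of cohesin release differed among themselves. WAPL, which opens the ring, is on chromosome 10 (reverse strand, 86435256 to 86521815). Its level was 103.1 and 104.0 CPM in control against 103.4 and 93.4 CPM in Erastin libraries. It was the only member whose groups overlapped. The log2 fold change was −0.07, with a 95% interval of −0.24 to 0.09 (edgeR adjusted p = 0.449), so the data bound its change to that interval and do not show that it was the same in both groups. It was −0.15 without Erastin replicate 1 and −0.00098 without Erastin replicate 2.

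PDS5A and PDS5B are paralogues that bind cohesin and work both in its release and in its maintenance. PDS5A, on chromosome 4 (reverse strand, 39822863 to 39977956), had 212.7 and 211.7 CPM in control against 186.3 and 183.7 CPM in Erastin libraries. The replicates were close and the groups did not overlap. PDS5A fell by 0.20 on the log2 scale (95% interval −0.34 to −0.06, edgeR adjusted p = 0.0233), a call that was lost with library totals in place of TMM (adjusted p = 0.0753) and without Erastin replicate 1 or 2 (adjusted p = 0.120 and 0.174). PDS5B, on chromosome 13 (forward strand, 32586427 to 32778019), is the scarcer paralogue and fell further. Its level was 34.1 and 33.3 CPM in control against 19.0 and 18.7 CPM in Erastin libraries. The log2 fold change of PDS5B was −0.84 (95% interval −1.07 to −0.61, standard error 0.105, edgeR adjusted p = 4.39e-05), a ratio of 0.559, which the plot of fold changes sets below every member but RAD21.

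**Figure D3:**
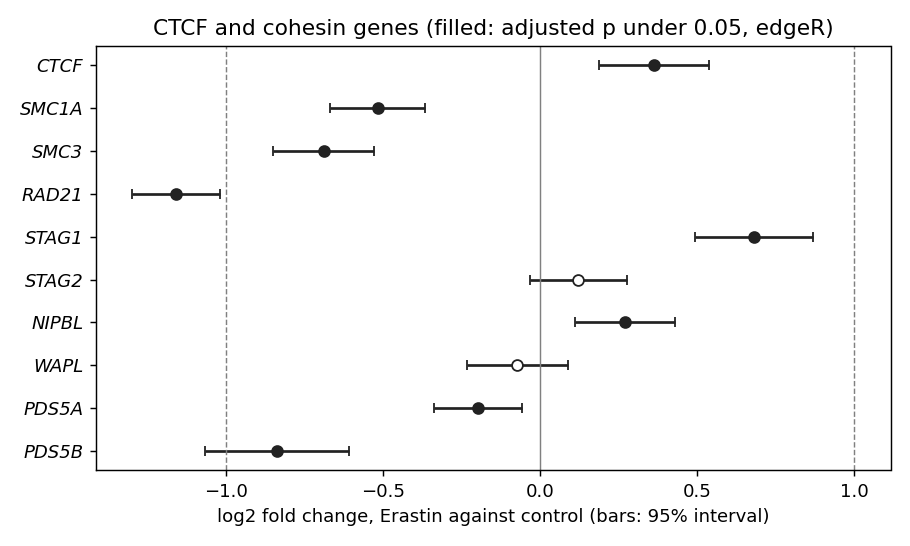
Log2 fold change of each of the 10 genes, Erastin against control, with its 95% interval as a bar. Filled points passed an adjusted p under 0.05 in edgeR, and the open points are STAG2 at 0.12 and WAPL at −0.07.

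On the RPKM scale the order of the members changed between the groups. In control cells RAD21 was highest at 56.6 ± 1.22, then SMC3 at 33.5 ± 0.353, and PDS5B was lowest at 2.55 ± 0.0459 (SD, n = 2 libraries each). PDS5A at 17.4 ± 0.0592 and STAG2 at 16.6 ± 0.973 came next after SMC3 and did not differ beyond the spread of STAG2. In Erastin-treated cells RAD21 was at 25.3 ± 0.111 and SMC3 at 20.8 ± 1.50, followed by STAG2 at 18.0 ± 0.546. CTCF went from 12.2 ± 0.0990 to 15.7 ± 0.924 and came to the level of PDS5A at 15.2 ± 0.148, the range of CTCF taking in that of PDS5A. STAG1 went from 6.95 ± 0.0135 to 11.1 ± 1.17, while SMC1A went from 11.2 ± 0.204 to 7.79 ± 0.204, level with NIPBL at 7.80 ± 0.0560. WAPL lay at 14.3 ± 0.0841 and 13.6 ± 0.981. These levels compare genes of unequal length and sequence, so only large steps in the order can be read.

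Ratios between genes of related or opposed roles were taken within each library, where scaling between libraries has no part. STAG2 to STAG1 reads per base stood at a ratio of 2.38 in control cells and 1.62 in Erastin-treated cells, a log2 difference of −0.55. PDS5A to PDS5B went from 6.81 to 10.6, a log2 difference of 0.64. In both paralogue pairs the replicates of a group were closer to each other than the groups were. WAPL to NIPBL, release against loading, went from 2.22 to 1.74, a log2 difference of −0.35. Within the ring, SMC3 to SMC1A went from 3.00 to 2.66, with log2 ratios of 1.58 and 1.59 in control against 1.51 and 1.31 in Erastin libraries. The Erastin libraries were below the controls, but they differed more from each other than the nearest pair of libraries across the groups did. RAD21 to SMC3 went from 1.69 to 1.22. CTCF to RAD21 moved the most, from 0.215 to 0.618, a log2 difference of 1.52. None of the 6 ratios overlapped between the groups, and each had an exact permutation p of 0.333, the smallest that 2 against 2 can give. For single tested genes, both Erastin libraries lay above both controls in 36.7% and below both in 36.9%. No such share was taken for ratios of other genes. Some pairs share RAD21 or SMC3, so the 6 ratios are not independent of each other.

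**Figure D4:**
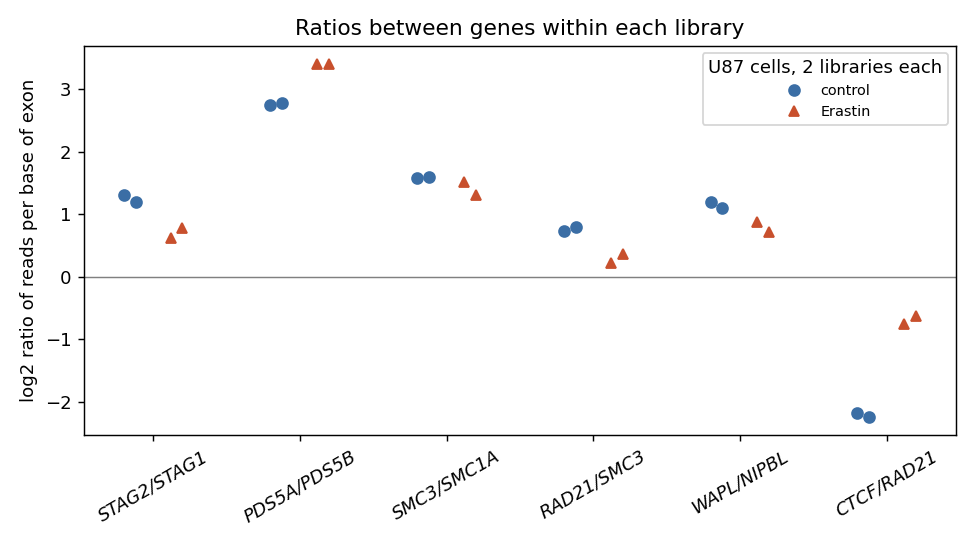
Log2 ratio of reads per base of exon for 6 pairs of genes in each library (blue circles control, orange triangles Erastin), with the line at 0 marking equal reads per base. CTCF against RAD21 has the widest gap, with −2.19 and −2.25 in control and −0.76 and −0.63 in Erastin libraries.

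The bases before the start of 9 of the 10 genes, all but RAD21, were searched for short motifs of promoters, in windows of 250 bases from RefSeq on GRCh38.p14. They are shown for a pair of ring genes that fell and for a STAG gene and the loading gene that rose, as a description of sequence near genes that moved in opposite directions. Bases inside the gene as the count table annotates it are not printed. Capitals mark a full match, on either strand, to the CCAAT box (CCAAT), the CHR element of cell cycle genes (TTTGAA), forms of the E2F site (TTTCGCGC, TTTGGCGC, TTTCCCGC), the ETS site (CCGGAAG), the YY1 site (AAGATGGC) or the CRE (TGACGTCA). SMC1A is shown from chrX:53422729-53422978 on the reverse strand, SMC3 from chr10:110567445-110567690 on the forward strand, STAG1 from chr3:136752404-136752628 on the reverse strand and NIPBL from chr5:36876519-36876758 on the forward strand.
SMC1A: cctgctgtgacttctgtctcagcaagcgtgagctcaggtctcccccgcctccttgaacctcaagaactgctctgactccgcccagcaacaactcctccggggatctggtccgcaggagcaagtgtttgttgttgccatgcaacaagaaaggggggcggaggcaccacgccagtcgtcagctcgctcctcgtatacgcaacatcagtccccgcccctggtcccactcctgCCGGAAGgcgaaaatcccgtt
SMC3: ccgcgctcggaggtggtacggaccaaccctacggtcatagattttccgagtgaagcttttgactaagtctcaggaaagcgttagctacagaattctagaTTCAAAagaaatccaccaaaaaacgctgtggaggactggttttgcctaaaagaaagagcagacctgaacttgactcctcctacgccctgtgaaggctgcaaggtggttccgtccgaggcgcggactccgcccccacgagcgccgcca
STAG1: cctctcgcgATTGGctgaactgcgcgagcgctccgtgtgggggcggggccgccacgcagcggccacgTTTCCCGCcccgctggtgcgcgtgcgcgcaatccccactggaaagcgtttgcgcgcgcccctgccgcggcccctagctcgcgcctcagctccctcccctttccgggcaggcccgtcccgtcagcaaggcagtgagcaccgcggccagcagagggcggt
NIPBL: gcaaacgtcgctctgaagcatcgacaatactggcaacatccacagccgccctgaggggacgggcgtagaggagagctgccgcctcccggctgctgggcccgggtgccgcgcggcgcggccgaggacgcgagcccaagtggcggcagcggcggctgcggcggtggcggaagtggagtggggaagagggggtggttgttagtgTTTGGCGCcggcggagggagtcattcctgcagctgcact

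SMC1A held the ETS letters and SMC3 the CHR letters on its reverse strand. STAG1 held CCAAT on the reverse strand and the E2F letters TTTCCCGC, which overlap a GC box, and NIPBL held the E2F letters TTTGGCGC, with an ETS match near the start that runs into the bases not printed. Over the 9 windows, CCAAT was found in 5 (STAG1, STAG2, WAPL, PDS5A and PDS5B), against 32% of 35116 windows of the same length before RefSeq genes. The STAG2 window lay wholly inside the gene as the count table annotates it, and the PDS5B match ran into the annotated gene. TTTGAA was found in 2 (CTCF and SMC3), against 13.3%, and CCGGAAG in 2 (SMC1A and NIPBL), against 8.52%. TTTGGCGC was found in 1, against 0.55%, and TTTCCCGC in 1, against 1.39%. The GC box GGGCGG was found in all 9, against 42.6%, and is not capitalized. The 9 windows held between 52.8% and 78% G or C, and no background of like base content was taken. The background took every annotated start, while each member gave only its outermost. TTTCGCGC (0.439% of windows), AAGATGGC (1.36%) and TGACGTCA (1.65%) were found in 0 of the 9. The members that carried CCAAT included STAG1, which rose, and PDS5B, which fell, so these letters did not sort the members by direction. A match is a description of the letters and no evidence of binding.

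Other genes that work with cohesin, or in related complexes, are given from lists of 45 genes, of which 42 were tested. Together 5 of the 42 were higher and 25 lower by the adjusted p, beside 23.2% and 23.7% of all tested genes. Past both thresholds 1 was higher and 15 lower, beside 6.24% and 9.34%, and these shares are the background of each list that follows. That background was not matched in level to the genes of the lists. The 42 had a median log2 fold change of −0.40, against −0.00 over all tested genes. Of the 15 loading and regulatory genes of cohesin, 2 were higher (MAU2 and CHTF8) and 10 lower, 8 of these past both thresholds, with a median of −1.53. CDCA5, which encodes sororin, the protector of sister chromatid cohesion, had 1993 and 1999 counts in control against 381 and 376 in Erastin libraries, a log2 fold change of −2.39. SGO1, the shugoshin that guards centromeric cohesin in mitosis, stood at −2.95, and CHTF18, part of the clamp loader that aids cohesion in S phase, at −2.40. ESPL1, the separase that cuts RAD21, stood at −1.92 and PTTG1, the securin that holds separase back, at −1.75, and all of these fell past both thresholds. CHTF8, which encodes a partner of CHTF18, moved the other way, with a log2 fold change of 0.44 (edgeR adjusted p = 0.000667). ESCO2 (−1.74), the paralogue of ESCO1, SGO2 (−1.65) and DSCC1 (−1.53) also fell past both thresholds. DDX11 (−0.26) and TIMELESS (−0.65) fell less, and TIPIN (0.32), ESCO1 (0.07) and HDAC8 (0.05) did not pass the test. The part of the fall in dividing-cell markers in the values of this list was not tested.

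The condensin genes, whose ring-shaped complexes compact mitotic chromosomes, were lower in 8 of 8, 6 of them past both thresholds, with a median log2 fold change of −1.97. SMC4, an arm of both condensins, had 242.9 and 262.8 CPM in control against 56.2 and 61.5 CPM in Erastin libraries. Log2 fold changes were −2.95 for NCAPH, −2.60 for NCAPG, −2.10 for SMC4, −1.98 for NCAPD2 and −1.97 for NCAPG2. These 5 were named as the largest falls of the list. The other 3 fell less, NCAPD3 with −1.08, SMC2, the other arm of both condensins, with −0.70 and NCAPH2 with −0.38.

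In the SMC5/6 complex, which acts in DNA repair, 5 of 9 genes were lower and 2 higher. NSMCE4A stood at −1.19 and SLF2 at 0.41 on the log2 scale, both past the adjusted p, and SMC5 stood at 0.03 without passing the test. EID3 lies within TXNRD1, which the paper reports as upregulated, and whether reads of TXNRD1 entered the counts of EID3 was not tested. EID3 was the only gene of these lists higher past both thresholds. It had 8 and 6 counts in control against 35 and 28 in Erastin libraries, which is a shallow measurement. Its call was lost without control replicate 2 (edgeR adjusted p = 0.0604) or Erastin replicate 1 (edgeR adjusted p = 0.114). Of 8 other factors of loops and CTCF sites, 1 was higher and 2 lower, with a median log2 fold change of −0.07. YY1, a zinc-finger protein found at enhancer and promoter loops, had 217.7 and 208.5 CPM in control against 167.3 and 165.3 CPM in Erastin libraries, a log2 fold change of −0.36 (edgeR adjusted p = 0.000771). MAZ fell further, with −0.68 (edgeR adjusted p = 0.00443), and WIZ rose, with 0.36 (edgeR adjusted p = 0.00457). ADNP, a zinc-finger protein that competes with CTCF at some sites, stood at 0.01. Of the 5 germline paralogues of cohesin and CTCF, only STAG3 and REC8 passed the filter, at 70 counts or fewer in every library, and neither passed the test. The plot of these lists shows the members among them.

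**Figure D5:**
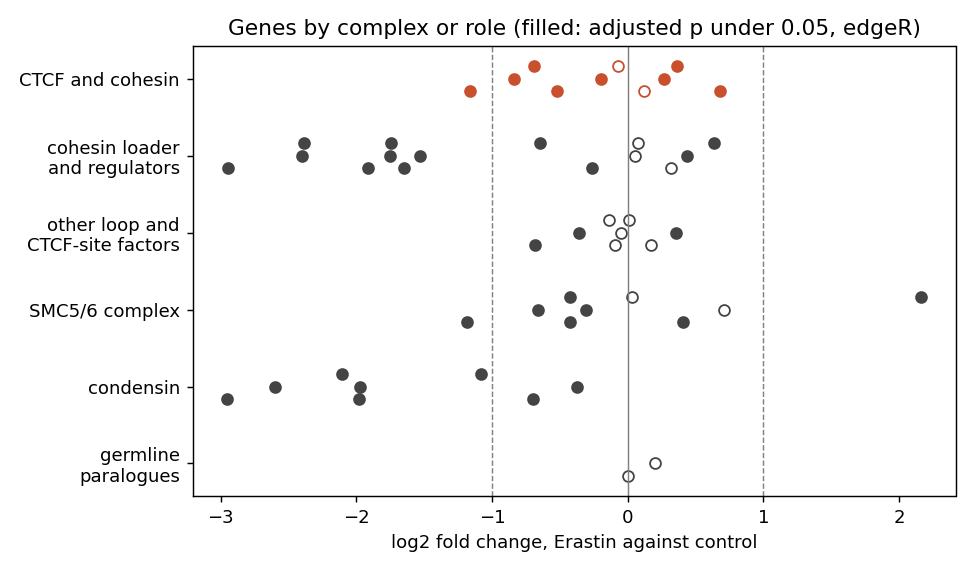
Log2 fold change, Erastin against control, of each tested gene in 6 lists, with 1 point per gene (orange for the 10 CTCF and cohesin genes), filled where the adjusted p was under 0.05 in edgeR. The dashed lines stand at a log2 fold change of 1 in either direction, and condensin lies wholly below 0 while the CTCF and cohesin genes lie on both sides of it.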

How the data were processed

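RNA-seq was analysed in 4 libraries of U87 cells, 2 of control and 2 of Erastin-treated cells, grouped by their labels. Per the file headers, the authors made the table with featureCounts 2.0.3 on the Ensembl release 90 annotation of GRCh38, without strand, and each read of a pair was counted. The labels name HISAT2 2.1.0 as aligner and featureCounts 2.0.4. The deposited values were raw counts. They were checked for decimals, which estimated counts can have, and none were found among the deposited counts. The deposited length of all exons was used for reads per kilobase. Intervals cover the spread that edgeR estimated, and PCR reads without molecular identifiers are not independent molecules.

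Low-count genes were removed by filterByExpr of edgeR 4.0.16 (R 4.3.3), whose minimum count of 10 kept 16751 genes. TMM factors lay between 0.971 and 1.02. Groups were compared without a block by edgeR's quasi-likelihood test, two-sided, with Benjamini-Hochberg adjustment over all tested genes. The biological coefficient of variation was 10.3%. The thresholds were 0.05 for the adjusted p and, where stated, 1 for the size of the log2 fold change. The methods were tested on simulated data. As alternatives, the test was that of DESeq2 1.42.0, the scaling used RLE factors or library totals, the filter was dropped or raised to 10 counts in each library, and the model was given a replicate block. Others were counts divided by 2 and rounded up, and each library left out in turn.

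The members and lists were chosen with earlier results of these data known. Named genes were all members, the genes of each list past both thresholds up to the 5 of largest size, the 2 most expressed of each list, and 4 division markers. Other genes named are identity markers, genes that overlap a member, and TXNRD1, within which EID3 lies. NCAPD3, SMC2, NCAPH2, DDX11, TIMELESS, TIPIN, ESCO1, HDAC8, ESCO2, SGO2, DSCC1, MAZ and WIZ were chosen after their values were seen. ChIP-seq and HiChIP data were not analysed here, nor was protein, so no value is given for binding or loops.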

Additional observations from a re-analysis of the deposited data

How the results depend on the processing

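With 2 libraries per group, levels and ratios have few replicates, and the calls of NIPBL and PDS5A needed both Erastin libraries. Over 11 alternatives for each of the 10 members, 105 of 110 values kept their direction and their side of the threshold, 5 kept the direction and lost the call, and 0 reversed. The median of all genes moved by at most 0.0497 on the log2 scale, with library totals. The log2 fold change of PDS5A was −0.15 with library totals (adjusted p = 0.0753) and between −0.21 and −0.19 with 1 library left out. That of NIPBL lay between 0.21 and 0.32 with 1 library left out. RAD21 lay between −1.18 and −1.11 over all alternatives and STAG1 between 0.57 and 0.78. Genes higher past both thresholds in the lists beside the members, 1 by the main test, were 0 with at least 10 counts in every library and 0 to 1 with 1 library left out, the gene being EID3. Some genes near 0 reversed: REC8 was −0.00024 with no low-count filter, −0.0522 with the replicate block and −0.67 to 0.47 with 1 library left out, where STAG3 was −0.0589 to 0.41, ADNP −0.0424 to 0.0519 and SMC5 −0.0673 to 0.13. Same-numbered libraries did not deviate together (correlation 0.0293 across genes), so the numbers were not taken to pair them. The replicate block gave 3 members higher and 5 lower, the same counts as without it, and 4030 genes higher and 4077 lower by the adjusted p.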
